A study of Mus musculus with 6 samples.

Results

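The nuclear-encoded subunits of respiratory complexes II, III and IV and of ATP synthase (complex V) were examined in brown adipose tissue (BAT) of mice, a heat-producing fat. The set holds 43 genes, listed by symbol and including tissue-restricted isoforms: 4 of complex II, 9 of complex III, 15 of complex IV and 15 of complex V. All 43 were found among the 24062 symbols of the count table. RNA was sequenced from 6 male C57BL/6 mice aged 12 weeks, 3 labelled heterozygous for FAM195A (titles RF1, RF3 and RE6, called heterozygous 1, 2 and 3) and 3 labelled FAM195A knockout (RF2, RF4 and RE9, called knockout 1, 2 and 3). Per the series' text, FAM195A binds RNA, belongs to stress granules and is required when mice make heat in the cold. The labels give no housing temperature or cold exposure, and wild-type mice were not analysed here. Values for single libraries are always given in the order 1, 2, 3. The subunits were compared between the 2 labels, and the complexes with each other across the 6 libraries.

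Complex II is succinate dehydrogenase, which feeds electrons from the citric acid cycle into ubiquinone. Complex III passes them from ubiquinol to cytochrome c, and complex IV, cytochrome c oxidase, passes them to oxygen; complexes III and IV pump protons. Complex V uses the proton gradient to make ATP, whereas in brown fat the uncoupling protein UCP1 lets protons return without ATP synthesis, and rodent brown fat is known for much respiratory chain and little ATP synthase. Some subunits of complexes III, IV and V are encoded by mitochondrial DNA or, like the isoforms of COX6A, COX7A and COX8, by gene pairs of which one is typical of muscle and brown fat. Transcripts from mitochondrial DNA were not analysed here.

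The reads counted in genes came to between 18781401 and 25084627 a library. Counts of the targeted gene, Fam195a, overlapped between the labels. It stood at 69.0, 70.5 and 103 CPM under the heterozygous label. CPM is the gene's share of a library's reads in genes, on the usual CPM scale, after scaling between libraries. Under the knockout label it stood at 50.5, 82.0 and 81.3 CPM (log2 fold change -0.18, SE 0.241, edgeR adjusted p = 0.896). Counts per gene do not show whether the transcript was intact, so they neither bear out nor contradict the labels. Directions below are therefore those of the libraries labelled knockout against those labelled heterozygous. Brown adipocyte genes were abundant in every library, with 13 markers summing to 7615 to 10301 CPM and 7669 to 12213 CPM in the 2 groups. Skeletal muscle markers were present as well: 24 genes summed to 12096, 27665 and 35640 CPM in the heterozygous-labelled libraries and to 7551, 4436 and 4238 CPM in the knockout-labelled ones, so the groups did not overlap. All 24 had log2 fold changes below 0 (median -2.21) and none passed the threshold. In whole tissue, fewer cells of a type and less RNA per cell cannot be told apart.

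None of the 43 subunits passed an adjusted p of 0.05 by edgeR's quasi-likelihood test over 13300 genes, of which 0.586% passed. The pattern across the set was uneven. Sdha and Sdhb of complex II and the core and Rieske subunits of complex III lay lower in all 3 knockout-labelled libraries than in the others, most small subunits of complexes III, IV and V had estimates slightly above 0, and 2 low-abundance isoform genes, Cox6a2 and Atp5g1, had the most negative fold changes. Of the 43 genes, 14 had log2 fold changes below 0 and 29 above, with a median of 0.15, against a median of 0.02 over all genes tested, of which 46.9% were below 0. At an unadjusted p under 0.05, 7 members were lower, where 8.04% of all genes were, and 2 were higher, where 4.05% were. The 3 knockout-labelled libraries lay below all 3 others in 7 members (9.89% of all genes) and above them in 3 (8.11% of all genes). DESeq2 called 6 members lower (4.44% of 14363 genes) and none higher, and limma-voom with quality weights called 3 lower (1.24% of 13300 genes) and none higher. The 6 were Sdha, Uqcrc1, Uqcrc2, Uqcrfs1, Cox6a2 and Atp5g1, and the 3 were the first 3 of these. With the title prefix (RF or RE, which the labels do not explain) as a covariate, edgeR called the first 4 lower (1.83% of 13300 genes), at adjusted p = 0.0272 for Sdha, 0.0342 for Uqcrc1, 0.0316 for Uqcrc2 and 0.0443 for Uqcrfs1. Other edgeR fits called no gene at all, member or not. These were the fits without heterozygous 2, without knockout 1, without knockout 2, and with the level of the skeletal muscle markers as a covariate.

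**Figure D1:**
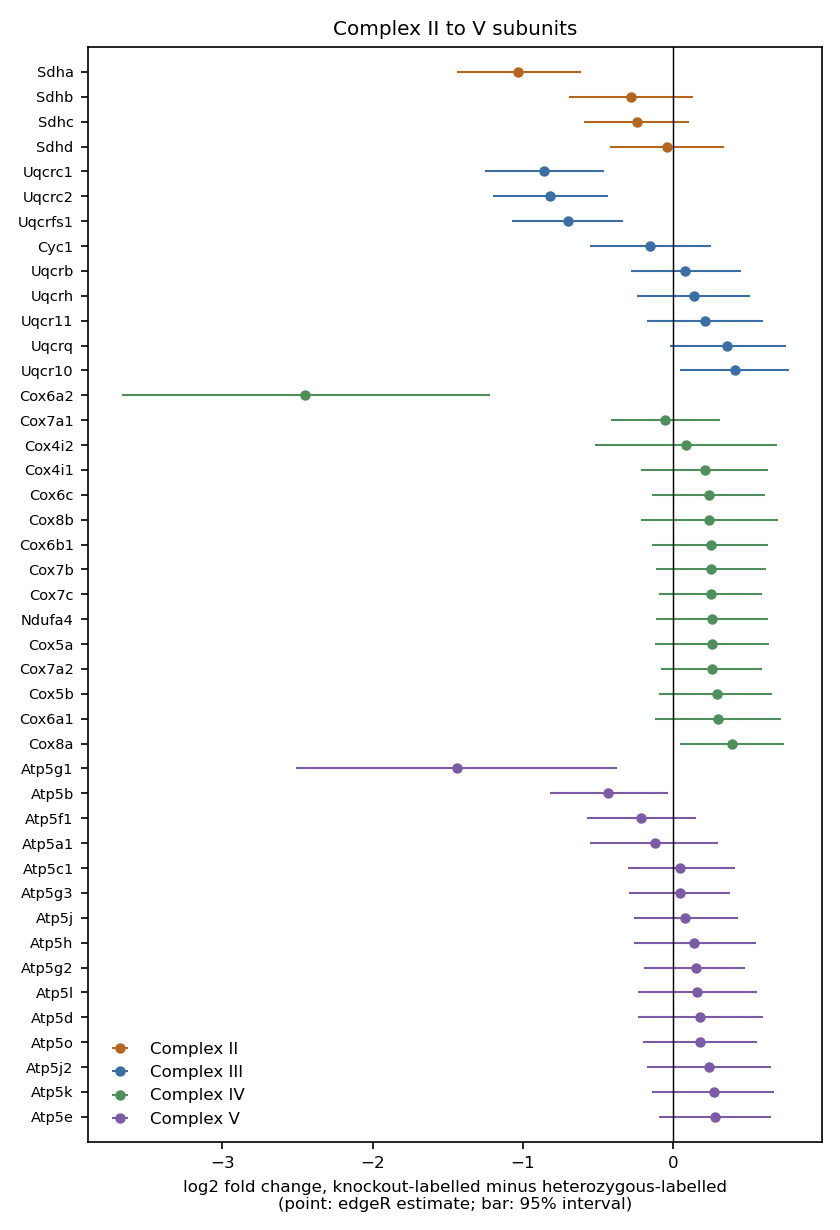
Log2 fold change of each of the 43 subunit genes (horizontal axis), grouped by complex and ordered by value, with the edgeR estimate as a point and its 95% interval as a bar. The interval lies wholly below 0 for 7 genes, among them Sdha, Uqcrc1, Uqcrc2 and Uqcrfs1, while 13 of 15 complex IV genes have estimates above 0.

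In complex II all 4 genes had log2 fold changes below 0, with a median of -0.26, from -1.03 to -0.04. Sdha (chromosome 13, 74322254 to 74350280, minus strand, GRCm38), the flavoprotein that oxidises succinate, stood at 3354, 2997 and 2616 CPM under the heterozygous label and 1325, 1400 and 1676 CPM under the knockout label. The groups did not overlap, and the lowest heterozygous-labelled value was well above the highest knockout-labelled one. The mean was 2989 ± 369 against 1467 ± 185 CPM (SD, n = 3 each; log2 -1.03, SE 0.178, 95% interval -1.44 to -0.61, edgeR adjusted p = 0.0631). The log2 difference was -1.22 between the 4 libraries with RF titles and -0.64 between the 2 with RE titles.

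The other 3 subunits of complex II had smaller differences. Sdhb, the iron-sulfur subunit that pairs with Sdha in the catalytic head, stood at 612, 602 and 650 CPM and at 400, 557 and 581 CPM (log2 -0.28, 95% interval -0.69 to 0.13, edgeR adjusted p = 0.665). Its groups did not overlap either, but knockout 2 and 3 lay close to the heterozygous-labelled libraries. Sdhc, one of the pair of membrane anchors that hold heme and bind ubiquinone, stood at 309, 311 and 344 CPM and at 236, 266 and 313 CPM (log2 -0.24, edgeR adjusted p = 0.655). Those ranges overlapped, as did those of the other anchor gene, Sdhd (log2 -0.04, edgeR adjusted p = 0.971). The summed level of the head genes was 4.32, 4.31 and 3.32 times that of the anchors in the heterozygous-labelled libraries and 2.39, 2.24 and 2.39 times in the knockout-labelled ones.

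Complex III divided by subunit class. The 2 core proteins and the 2 redox subunits all had fold changes below 0, and the 5 small subunits all had fold changes above 0. Uqcrc1 (chromosome 9, 108936633 to 108949623, plus strand), a core protein facing the matrix, stood at 1135, 1156 and 1202 CPM under the heterozygous label and 519, 704 and 706 CPM under the knockout label. Its mean was 1164 ± 34.2 against 643 ± 108 CPM (SD, n = 3 each; log2 -0.86, SE 0.169, edgeR adjusted p = 0.0754). Uqcrc2 (chromosome 7, 120635176 to 120659524, plus strand), its partner core protein, stood at 1272, 1128 and 1212 CPM and at 585, 673 and 793 CPM (log2 -0.82, SE 0.165, edgeR adjusted p = 0.0788). For both core genes the groups were far apart relative to the spread within them, and knockout 1 was lowest. Uqcrc2 shares exon sequence with the opposite-strand gene Pdzd9, so reads of the pair could be told apart only if strand was used in counting.

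Uqcrfs1 (chromosome 13, 30540308 to 30545362, minus strand), the Rieske iron-sulfur protein that takes the first electron from ubiquinol, stood at 567, 563 and 657 CPM under the heterozygous label and 309, 398 and 395 CPM under the knockout label (log2 -0.70, SE 0.158, edgeR adjusted p = 0.0866), again without overlap. Cyc1, the cytochrome c1 subunit that hands electrons to cytochrome c, was at 639 ± 46.6 against 577 ± 99.9 CPM (SD, n = 3 each; log2 -0.15, edgeR adjusted p = 0.873), with overlapping groups. The difference between these 2 redox subunits was not tested. By title prefix (RF, then RE) the log2 differences were -0.92 and -0.77 for Uqcrc1, -0.93 and -0.61 for Uqcrc2, and -0.69 and -0.73 for Uqcrfs1.

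Among the small subunits, which surround the catalytic core, log2 fold changes ran from 0.08 for Uqcrb to 0.41 for Uqcr10. Uqcr10 stood at 278, 247 and 253 CPM under the heterozygous label and 286, 383 and 367 CPM under the knockout label (log2 0.41, SE 0.154, edgeR adjusted p = 0.322). Knockout 1 lay only just above heterozygous 1, and the other 2 knockout-labelled libraries were clearly higher. Uqcrq, which also had groups without overlap, had a log2 fold change of 0.36 (edgeR adjusted p = 0.453), and Uqcrh and Uqcr11 had 0.14 and 0.21. Within each library, the summed core proteins stood at 0.84, 0.901 and 0.887 of the summed small subunits under the heterozygous label and 0.425, 0.4 and 0.462 under the knockout label. This ratio does not depend on how libraries are scaled, and its values were far apart between the labels; the pair of classes was set side by side after the values were seen.

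The start regions of 3 of these genes are shown because 2 of them lay lower and 1 higher in the knockout-labelled libraries, 2 of the 3 in the same complex. Each run is the 250 bases before the RefSeq start site on GRCm38.p6, read 5′ to 3′ on the gene's strand, for Sdha (chr13:74350241-74350490, minus strand), Uqcrc1 (chr9:108936398-108936647, plus strand) and Uqcr10 (chr11:4704345-4704594, minus strand). Capitals mark matches, on either strand, to 1 of 3 motifs of factors known to act on respiratory genes: GCGCANGCG for NRF-1, CCGGAAG for ETS factors such as GABP, and AAGGTCA for estrogen-related receptors.
Sdha: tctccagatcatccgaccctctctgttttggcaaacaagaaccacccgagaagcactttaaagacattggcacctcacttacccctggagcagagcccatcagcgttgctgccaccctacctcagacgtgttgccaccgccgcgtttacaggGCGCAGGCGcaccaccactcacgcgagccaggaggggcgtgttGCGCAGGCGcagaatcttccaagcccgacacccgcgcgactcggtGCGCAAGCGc
Uqcrc1: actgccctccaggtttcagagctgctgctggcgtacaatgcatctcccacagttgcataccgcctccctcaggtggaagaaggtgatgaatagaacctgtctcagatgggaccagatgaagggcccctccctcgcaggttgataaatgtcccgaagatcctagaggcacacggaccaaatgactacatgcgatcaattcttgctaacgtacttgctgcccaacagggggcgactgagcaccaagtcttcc
Uqcr10: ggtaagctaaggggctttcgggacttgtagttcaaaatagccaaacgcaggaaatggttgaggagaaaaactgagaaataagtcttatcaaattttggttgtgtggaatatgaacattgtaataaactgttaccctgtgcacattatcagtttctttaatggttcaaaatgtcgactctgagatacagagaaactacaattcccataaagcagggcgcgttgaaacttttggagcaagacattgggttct
Only Sdha, of these 3, held a match: 3 to the NRF-1 motif and none to the others. An entry in the RefSeq promoter table was found for 32 of the 43 members. Of these 32, 21.9% had the NRF-1 motif (5.16% of all 32851 promoters of that length in the table), 25% had the ETS motif (6.91%) and 6.25% had the receptor motif (4.08%). By direction, 1 of the 5 members with entries whose knockout-labelled libraries all lay lower had any of the motifs, as had none of the 2 whose libraries all lay higher. Of the 25 members with entries whose groups overlapped, 32% had the ETS motif, 24% the NRF-1 motif and 8% the receptor motif. With so few members, a contrast by direction cannot be read from these counts. A match is a description of the sequence and not evidence of binding.

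**Figure D2:**
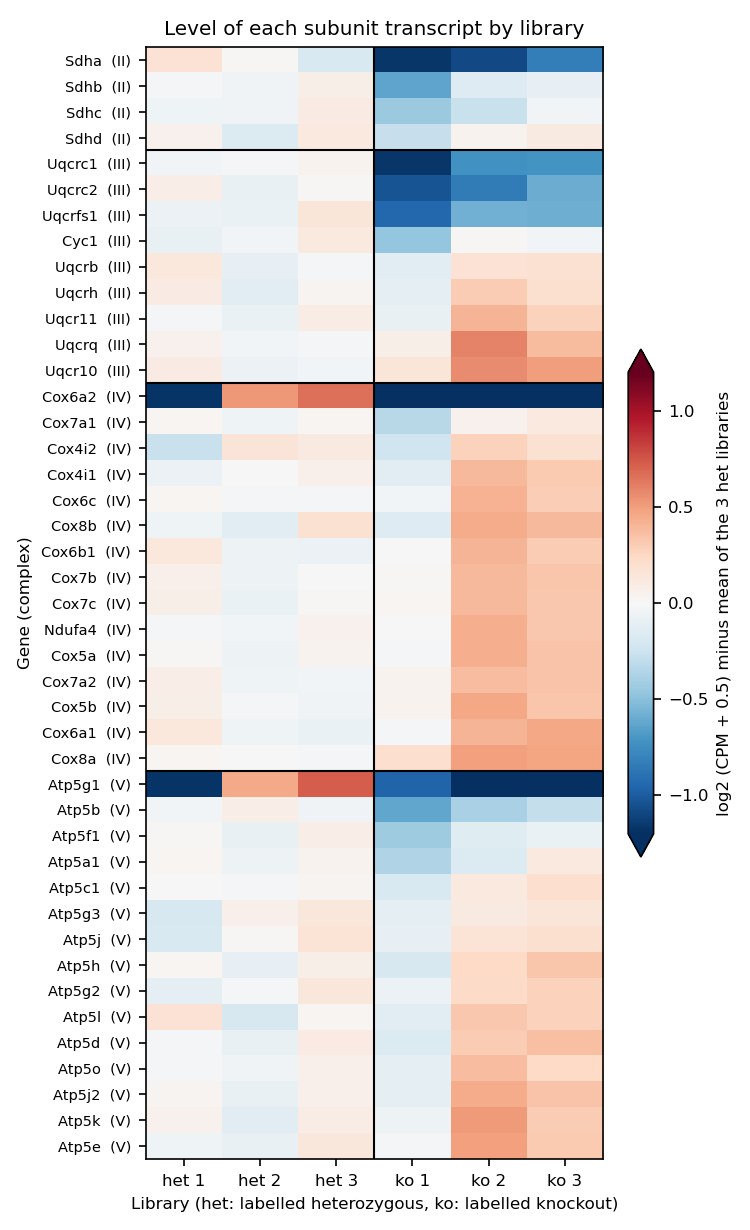
Level of each of the 43 transcripts (rows, grouped by complex) in each library (columns) as log2 of CPM plus 0.5, minus the mean of the 3 heterozygous-labelled libraries; colours run from blue (lower) to red (higher) and saturate at the ends of the scale. Sdha, Uqcrc1, Uqcrc2 and Uqcrfs1 are blue in all 3 knockout-labelled columns, most complex IV and V rows are red in knockout 2 and 3 and pale in knockout 1, and Cox6a2 and Atp5g1 are blue in heterozygous 1 as well.

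In complex IV the 11 common subunits lay within a narrow band. Their log2 fold changes ran from 0.21 to 0.39, all above 0, with a median of 0.26, and none passed (lowest edgeR adjusted p = 0.321). Cox8a, the common form of subunit VIII, stood at 802, 788 and 774 CPM under the heterozygous label and 907, 1107 and 1094 CPM under the knockout label (log2 0.39, SE 0.146, 95% interval 0.05 to 0.74). It was the only complex IV gene whose knockout-labelled libraries all lay higher. Cox4i1, the large nuclear subunit that takes part in regulation by ATP, stood at 990, 1044 and 1088 CPM and at 951, 1364 and 1297 CPM (log2 0.21, edgeR adjusted p = 0.786). Knockout 1 lay below the heterozygous-labelled range for Cox4i1, and the other 2 above it. For Ndufa4, Cox5a, Cox5b, Cox6b1, Cox6c, Cox7b and Cox7c, the log2 fold changes lay between 0.24 and 0.29. Against the heterozygous-labelled mean, the median of the 15 complex IV genes was -0.02 in knockout 1, 0.41 in knockout 2 and 0.32 in knockout 3 (log2), and the median fold change of 0.25 ran from 0.17 without knockout 2 to 0.36 without knockout 1.

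The tissue-restricted isoforms of complex IV did not share a direction. Cox6a2 (chromosome 7, 128205435 to 128206387, minus strand), the muscle-type form of subunit VIa, stood at 46.6, 152 and 168 CPM under the heterozygous label and 31.8, 21.8 and 13.4 CPM under the knockout label (log2 -2.45, SE 0.521, 95% interval -3.67 to -1.22, edgeR adjusted p = 0.0805). Heterozygous 1 lay much nearer to the knockout-labelled libraries than to heterozygous 2 and 3. The order of the 6 libraries by Cox6a2 was the order by summed skeletal muscle markers given above. The log2 difference was -1.66 among RF titles and -3.60 among RE titles. Cox6a2 shares exon sequence with the opposite-strand gene Itgad.

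Its common counterpart Cox6a1 stood at 1163, 1023 and 1009 CPM and at 1050, 1411 and 1467 CPM (log2 0.30, edgeR adjusted p = 0.64). The reads of Cox6a2 were thus 4.01%, 14.8% and 16.6% of those of Cox6a1 under the heterozygous label and 3.03%, 1.55% and 0.912% under the knockout label. The within-library log2 ratio differed by -2.62 between the labels (two-sided exact permutation test, p = 0.1, the lowest possible with 3 against 3; adjusted p = 0.3 over 6 isoform ratios). All 3 knockout-labelled ratios lay below all 3 others. Leaving out single libraries, the difference ran from -3.27 without heterozygous 1 to -2.20 without knockout 3, and in the RF-titled libraries alone it was -1.83.

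Cox7a1, the muscle and brown fat form of subunit VIIa, stood at 310, 295 and 311 CPM under the heterozygous label and 242, 315 and 330 CPM under the knockout label (log2 -0.05, edgeR adjusted p = 0.962). Its common counterpart Cox7a2 stood at 339, 308 and 313 CPM and at 330, 413 and 406 CPM (log2 0.26, edgeR adjusted p = 0.594). Each gene alone overlapped between the labels, but their ratio did not. Reads of Cox7a1 were 91.5%, 95.9% and 99.1% of those of Cox7a2 under the heterozygous label and 73.3%, 76.5% and 81.3% under the knockout label. The log2 difference was -0.31 (exact permutation test, two-sided p = 0.1, adjusted p = 0.3). With 3 against 3 this p is the lowest possible, and it says no more than that the groups did not overlap.

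For subunit VIII, the muscle and brown fat form Cox8b stood at 384, 367 and 452 CPM and at 359, 543 and 522 CPM (log2 0.24, edgeR adjusted p = 0.765). Its ratio to Cox8a differed by -0.16 on the log2 scale, with overlap (exact permutation test, two-sided p = 0.5, adjusted p = 0.5). Cox4i2, an oxygen-sensitive form of subunit IV best known from lung, was scarce, with 52 to 109 reads a library, at 2.77, 3.88 and 3.74 CPM and at 2.82, 4.25 and 3.97 CPM. Its ratio to Cox4i1 differed by -0.11 (exact permutation test, two-sided p = 0.4, adjusted p = 0.48). Of the 4 muscle-type or restricted isoforms, Cox6a2 alone had a log2 fold change beyond 0.3 in size; differences between the 4 were not tested.

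ATP synthase had a median log2 fold change of 0.14 over 15 genes, with 4 below 0 and 11 above. Atp5b, the catalytic beta subunit of the F1 head, stood at 4789, 5162 and 4744 CPM under the heterozygous label and 3171, 3731 and 4024 CPM under the knockout label. The groups did not overlap (log2 -0.43, SE 0.169, 95% interval -0.82 to -0.03, edgeR adjusted p = 0.359). Atp5a1, the alpha subunit that alternates with beta in the head, was at 3656 ± 136 against 3353 ± 571 CPM (SD, n = 3 each; log2 -0.12), with overlap. In the same head, the stalk subunits Atp5c1 and Atp5d had log2 fold changes of 0.05 and 0.18. Atp5e, the smallest of the head's subunits, stood at 108, 106 and 124 CPM and at 112, 158 and 140 CPM (log2 0.28, edgeR adjusted p = 0.619). It had the highest estimate of the 15, and its groups overlapped. The peripheral stalk genes Atp5f1, Atp5h, Atp5j and Atp5o, which hold the head still, had values of -0.21, 0.14, 0.08 and 0.18. The small membrane subunits Atp5j2, Atp5k and Atp5l had 0.24, 0.27 and 0.16.

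Atp5g1, Atp5g2 and Atp5g3 encode the same mature c subunit, the protein of the rotating ring, with different import sequences. Atp5g1 (chromosome 11, 96068852 to 96075670, minus strand), whose product is regarded as limiting for ATP synthase content in brown fat, stood at 10.9, 34.6 and 41.9 CPM under the heterozygous label and 12.7, 10.7 and 8.72 CPM under the knockout label (log2 -1.44, SE 0.456, 95% interval -2.51 to -0.37, edgeR adjusted p = 0.229). Heterozygous 1, which was also lowest of its group in muscle markers, lay among the knockout-labelled values. The log2 difference was -0.71 among RF titles and -2.20 among RE titles. Atp5g2 stood at 51.4, 55.1 and 61.7 CPM and at 53.0, 65.7 and 67.7 CPM (log2 0.15, edgeR adjusted p = 0.823). Atp5g3, the most abundant of the 3, stood at 169, 202 and 212 CPM and at 178, 209 and 214 CPM (log2 0.05, edgeR adjusted p = 0.962). Both overlapped between the labels. The log2 ratio of Atp5g1 to Atp5g3 differed by -1.29 (exact permutation test, two-sided p = 0.2, adjusted p = 0.3) and that of Atp5g2 to Atp5g3 by 0.10 (exact permutation test, two-sided p = 0.2, adjusted p = 0.3). Atp5g1 was the least abundant of the 3, and the summed c subunit transcripts overlapped between the labels, at 279 ± 43.4 against 273 ± 25.7 CPM (SD, n = 3 each).

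**Figure D3:**
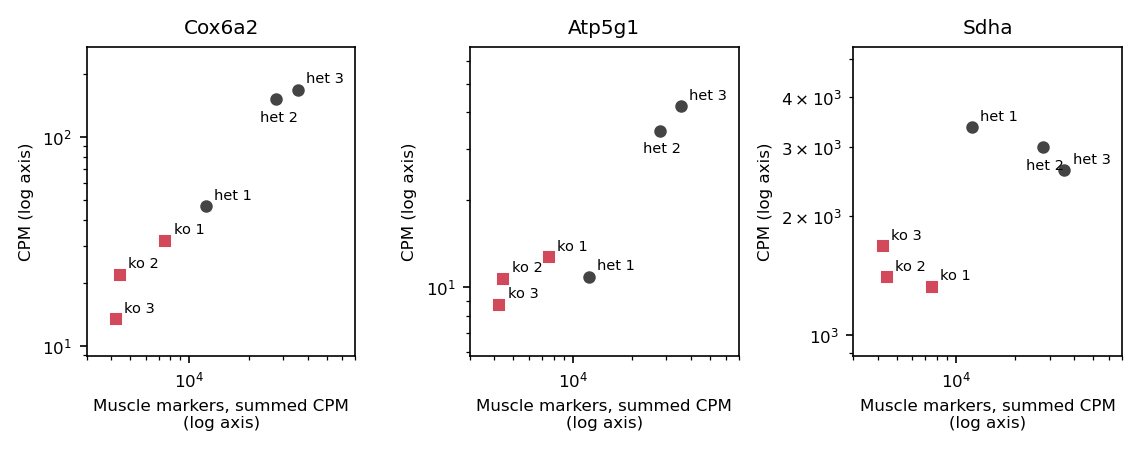
CPM of Cox6a2, Atp5g1 and Sdha (vertical, log axes) against the summed CPM of 24 skeletal muscle markers (horizontal, log axis), 1 point a library; circles are labelled heterozygous (het) and squares labelled knockout (ko). Cox6a2 follows the order of the muscle markers through all 6 libraries, Atp5g1 does so except for heterozygous 1, and Sdha runs in the opposite order to the muscle markers among the 3 heterozygous-labelled libraries (3354, 2997 and 2616 CPM).

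The skeletal muscle markers differed with the label, and some members followed their order. When the mean log2 level of these markers was added to the edgeR fit, the log2 difference became 0.22 for Cox6a2 and 1.07 for Atp5g1, and stayed negative for Sdha (-1.49), Uqcrc1 (-1.05), Uqcrc2 (-1.12) and Uqcrfs1 (-0.73). No gene passed in that fit, for members or elsewhere. The muscle level separated the labels completely, so the 2 cannot be told apart with 6 libraries. Complex medians in that fit were -0.41, -0.23, -0.03 and -0.04 for complexes II, III, IV and V. Its estimates had the opposite sign for 18 of the 43 members, namely 2 small subunits of complex III, 8 genes of complex IV and 8 of complex V, so that 28 members lay below 0 in place of 14.

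Set against each other within a library, the complexes stood in a different balance under the 2 labels. Summed complex II transcripts were 0.553, 0.524 and 0.488 of summed complex IV transcripts under the heterozygous label and 0.288, 0.249 and 0.294 under the knockout label. Complex III stood at 0.73, 0.711 and 0.744 of complex IV, and at 0.527, 0.516 and 0.529. Complex V stood at 1.47, 1.53 and 1.52 times complex IV, and at 1.17, 1.07 and 1.21 times. In each of the 3 ratios the labels did not overlap, and knockout 1, which had the lowest summed level of all members (25326 CPM, against 31847 to 33091 CPM in the other 5 libraries), had ratios close to those of knockout 2 and 3. These are sums over members, dominated by the abundant ones, and carry no test. The ratios were chosen after the values were seen, and no share over other sets of genes stands beside them. Without Sdha the complex II ratio was 0.177 ± 0.00929 against 0.133 ± 0.00703, and without Atp5b the complex V ratio was 0.94 ± 0.03 against 0.79 ± 0.0491 (SD, n = 3 each). The small subunits of complex III had a smaller difference as a share of the common subunits of complex IV. The values were 0.345 ± 0.0119 against 0.328 ± 0.0037 (SD, n = 3 each). The labels did not overlap, but heterozygous 2 (0.332) and knockout 1 (0.331) nearly touched. The complex V sum without Atp5b still held the abundant Atp5a1, at 3656 ± 136 against 3353 ± 571 CPM (SD, n = 3 each). By median log2 fold change, complexes IV and V stood closer, at 0.25 and 0.14. With the muscle score in the fit these medians were -0.03 and -0.04.

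**Figure D4:**
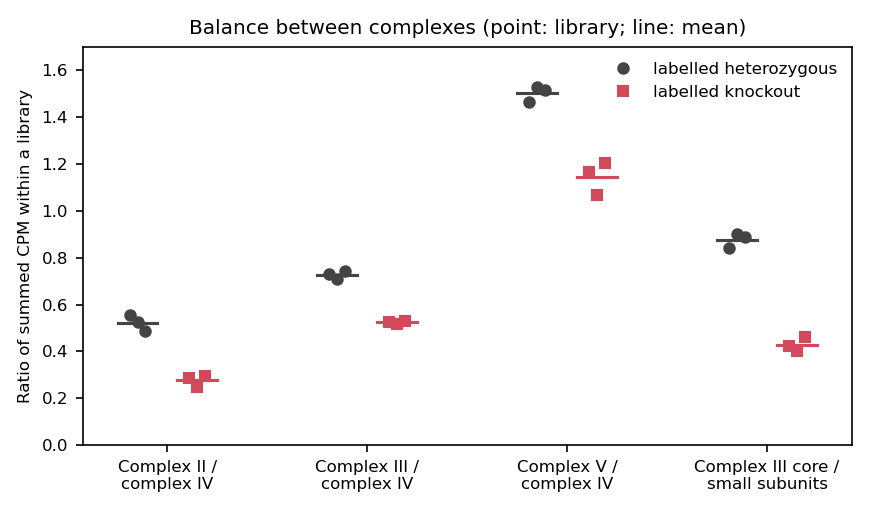
Ratio of summed CPM within each library for complexes II, III and V against complex IV, and for the core proteins of complex III against its small subunits; points are libraries (circles labelled heterozygous, squares labelled knockout) and lines are group means. In all 4 ratios the 3 knockout-labelled points lie below the 3 heterozygous-labelled ones, for example 0.249 to 0.294 against 0.488 to 0.553 for complex II.

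Longer transcripts among the members had the lower fold changes; length is a feature that played no part in choosing the set. Of 15 members with a principal transcript of at least 1000 bases, 12 had fold changes below 0 (median -0.24), and of 28 shorter ones 2 did (median 0.22), namely Cox6a2 and Cox7a1. Spearman's rho between length and log2 fold change was -0.61 over the 43 members. It was -0.70 within complex III (9 genes) and -0.72 within complex V (15 genes). Within complex II (4 genes), whose transcripts all have at least 1000 bases, it was 0. Within complex IV (15 genes), whose transcripts are nearly all short, it was 0.05. Over 13210 annotated genes tested it was -0.15, and genes under 1000 bases had a median of 0.11 against 0.01 for longer ones. These are descriptions across genes of the same 6 libraries, and the boundary was set after the values were seen. In a fit that removed a smooth length trend from each library, Sdha stood at -1.03, Uqcrc1 at -0.88, Uqcrc2 at -0.83 and Uqcrfs1 at -0.74, the medians were -0.29, -0.05, 0.12 and 0.02 for complexes II, III, IV and V, and rho over the members was -0.52. The part of transcript length in the pattern beyond that fit was not tested.

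**Figure D5:**
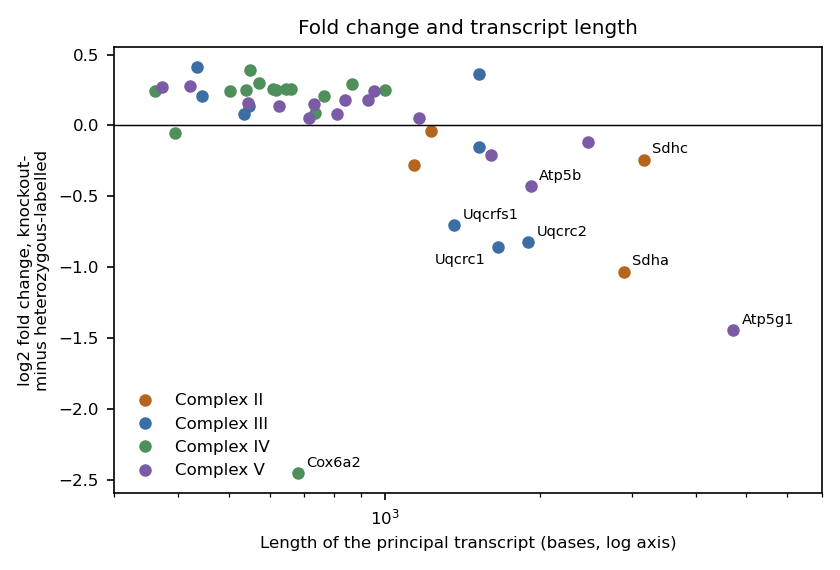
Log2 fold change of the 43 members (vertical) against the length in bases of the principal GENCODE transcript (horizontal, log axis), coloured by complex. Members under 1000 bases lie mostly just above 0 (median 0.22) except Cox6a2, and longer ones spread downward (median -0.24).

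Further measures describe how these genes were counted. Reads with more than 1 alignment made up 21.8% to 23.8% of all reads listed under the heterozygous label and 17.6% to 19.8% under the knockout label, and reads counted in genes 43.9% to 48.4% and 51% to 58.3%. An annotated pseudogene sharing at least 100 bases at 95% identity was found for 13 of the 43 members, with up to 9 for Atp5l, and for none of Sdha, Uqcrc1, Uqcrc2, Uqcrfs1, Cox6a2 and Atp5b. Whether reads of such copies were lost or moved between genes was not tested. Atp5g1 shares such stretches with 7 annotated genes, and its principal transcript is far longer than those of Atp5g2 and Atp5g3 (4715 against 731 and 714 bases). Besides Uqcrc2 and Cox6a2, other members share exon sequence with opposite-strand genes, among them Cox4i1 (Emc8), Atp5a1 (Haus1), Atp5f1 (Wdr77) and Atp5j (Gabpa). Reads listed as ambiguous made up 0.326% to 0.354% under the heterozygous label and 0.375% to 0.5% under the knockout label. The part of such overlaps in the fold changes was not tested.

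Per kilobase of principal transcript, the levels in the heterozygous-labelled libraries ranged widely. Atp5b was highest at 2556 ± 120 CPM per kb, then Cox6a1 at 1865 ± 149, Uqcrb at 1714 ± 138 and Atp5a1 at 1479 ± 55.0 (SD, n = 3 each). In complex II, Sdha stood at 1031 ± 127 CPM per kb against 544 ± 22.3 for Sdhb, 481 ± 49.0 for Sdhd and 101 ± 6.14 for Sdhc. In the knockout-labelled libraries Sdha stood at 506 ± 63.8 CPM per kb, next to Sdhb at 449 ± 86.2 and Sdhd at 468 ± 64.4. Cox4i2 was lowest at 4.73 ± 0.822 CPM per kb, followed by Atp5g1 at 6.17 ± 3.44, which rests on the long transcript named above.

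Other genes of the pathway were read from lists, which were chosen with earlier results of these data known. The share of a list past the threshold is therefore a description and not an independent result. Of 35 tested subunits of complex I, which takes electrons from NADH, 1 passed as lower and none as higher (median 0.15). Over all genes 0.586% passed. The 1 was Ndufs1, its large iron-sulfur subunit (log2 -1.31, edgeR adjusted p = 0.0254). Ndufs1 was at 807 ± 14.2 CPM under the heterozygous label and 327 ± 43.9 CPM under the knockout label (SD, n = 3 each). Of 30 tested assembly factors of complexes II to V, 16 had fold changes below 0 (median -0.06). Past the threshold were 4, all lower under the knockout label (13.3%, against 0.586% of all genes). These were Cox15, needed for heme A (log2 -1.58, edgeR adjusted p = 0.0152), Taco1, a translational activator of the mitochondrial COX1 mRNA (-1.21, edgeR adjusted p = 0.0248), Lrpprc, which stabilises mitochondrial mRNAs (-0.83, edgeR adjusted p = 0.0418), and Tmem70, which helps build ATP synthase (-0.90, edgeR adjusted p = 0.0367). Ndufs1 and these 4 factors did not pass without heterozygous 2, without knockout 1, without knockout 2 or with the muscle score. No gene in the whole table passed in any of those fits. Without heterozygous 3, where 8 of 13470 genes passed, only Cox15 of these did. Lrpprc also did not pass without knockout 3 (edgeR adjusted p = 0.0581), in the RF-titled libraries alone (0.0531) or with the GC offset (0.0515). With the title prefix as a covariate 7 assembly factors passed, as did 311 of all 13300 genes. None of the 5 tested factors of complex III or the 2 of complex II passed; Ttc19 had the smallest p among them (log2 -0.40, edgeR adjusted p = 0.174). Nor did any of 10 other subunits and regulators (median 0.08), among them cytochrome c, Cycs (log2 0.23, edgeR adjusted p = 0.689), or of 13 regulators of mitochondrial genes (median 0.03), led by Tfb2m (log2 -0.49, edgeR adjusted p = 0.16). Markers of white adipocytes, endothelium and macrophages had medians of -0.01, 0.05 and 0.24 over 6, 8 and 7 tested genes with none past the threshold. Summed white adipocyte markers were 106, 141 and 271 CPM under the heterozygous label and 115, 142 and 471 CPM under the knockout label. In each group the RE-titled library was thus highest, with Lep at 73.9 CPM in heterozygous 3 and 281 CPM in knockout 3. What set the RE-titled libraries apart was not tested. Of 13 brown adipocyte markers 9 had fold changes below 0 (median -0.17). The 1 that passed was Elovl3, an enzyme of fatty acid elongation (log2 1.03, edgeR adjusted p = 0.0418). It lost that status when heterozygous 2 (edgeR adjusted p = 0.171), heterozygous 3 (0.146), knockout 1 (0.141) or knockout 2 (0.107) was left out. Nor did Elovl3 pass with the muscle score. Of 5 red blood cell transcripts listed, 4 had no reads in any library. Their summed level of 7.81 to 19.8 CPM was therefore that of Alas2 alone and says little about blood content.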

How the data were processed

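Per the labels' protocols, total RNA came from frozen brown fat of 3 mice of each genotype. The values are raw counts of reads per gene symbol, as deposited. Listed without roles in the submitters' processing notes are STAR 2.7.2b, Bowtie2 2.3.4.3, HTSeq, SAMtools 1.9, Trim Galore and edgeR, with build mm10. Which annotation, strand setting and multiple-match rule were used is not stated. The 5 closing lines that name no gene were left out of library sizes and tests; reads in genes made up 43.9% to 58.3% of all listed reads. Groups follow the genotype label, numbered in accession order. The protocol counts mice per genotype, so each library was taken as 1 mouse.

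Counts were tested with edgeR 4.0.16 (R 4.3.3): filterByExpr (minimum count 10, total 15; 13300 of 24062 symbols kept, all 43 members among them), TMM scaling, the robust quasi-likelihood test on genotype and Benjamini-Hochberg adjustment over all genes at 0.05. CPM uses TMM-scaled library sizes. Isoform ratios (0.5 count added) had exact permutation tests; log2 differences within title prefixes used CPM plus 0.5. Transcript lengths are those of the principal GENCODE M21 transcript (GRCm38; 22750 symbols matched directly and 924 by an older name). The members and lists were chosen with earlier results of these data known; the choice of class ratios and of the length boundary followed the values. Printed in every library are, per complex, the 3 members with the smallest p, both genes of each isoform ratio, and the 2 most extreme members each way. From each other list up to 2 genes could be named, called genes first, then by smallest p; Lrpprc was added after its values were seen, to complete the count of assembly factors. Alternatives were RLE scaling, library size only, 2 other filters, leaving out each library, title prefix as covariate, only the libraries with RF titles, limma-voom (limma 3.58.1), DESeq2 1.42.0, an adjusted p of 0.1, non-robust estimation, library sizes without muscle genes, a muscle score as covariate, and offsets for length and GC content; ratios were also computed with 5 counts added. The test was checked on simulated counts. Every pair of libraries differed by more than sampling noise (lowest chi-square 39.3 per degree of freedom).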

Additional observations from a re-analysis of the deposited data

How the results depend on the processing

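The count of members past the threshold, 0 in the edgeR fit, was 1 with library size only, 1 without a filter on low counts, 1 in the RF-titled libraries alone, 4 with the title prefix as a covariate, 3 by limma-voom, 6 by DESeq2 and 5 at an adjusted p of 0.1; all of these were lower in the knockout-labelled libraries. Leaving out single libraries gave 0 to 2: Cox6a2 and Atp5g1 without heterozygous 1, and Sdha without knockout 3. Over all genes those fits called 400 of 13567 and 111 of 13419. No gene at all passed without heterozygous 2, knockout 1 or knockout 2, and 8 of 13470 passed without heterozygous 3. The count of members was 0 under the other scalings, filters and offsets, without robust estimation and with the muscle score. The cause of these differences was not tested. Sdha passed under 7 of 19 alternatives and its log2 fold change ran from -1.49 to -0.93; Uqcrc1 and Uqcrc2 passed under 3 each and Uqcrfs1 under 2, all with values below 0 throughout. With the muscle score the median was -0.23 for complex III, -0.03 for complex IV and -0.04 for complex V, and the sign changed for 18 of the 43 members, among the members printed by library for Cox6a1 (-0.20), Cox6a2 (0.22), Cox7a2 (-0.06) and Atp5g1 (1.07). Among the same members, near-zero values also changed sign for Cox4i2 (-0.05 without heterozygous 1, -0.03 without knockout 2, -0.03 with the length offset), Cox7a1 (0.08 without knockout 1) and Atp5g3 (-0.01 with library size only, -0.04 without heterozygous 1, -0.01 without knockout 3, -0.06 with the length offset). Leaving out single libraries gave ranges of -0.05 to 0.25 for Cox4i2, -0.14 to 0.08 for Cox7a1 and -0.04 to 0.13 for Atp5g3. The complex III median was also below 0 with the length offset (-0.05). The 6 isoform ratios kept their sign under each alternative run. No paired analysis was possible because the labels give the mice no shared replicate numbers; the title prefix, which each group holds, could be and was used as a covariate. Depth limits mainly Cox4i2, at 52 to 109 reads a library.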
